A study of Mus musculus with 16 samples.

Results

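A set of 10 matrix and matricellular genes was followed in tail tendon, out of 25719 genes counted in the series. It holds Coch and its relative Vit, Cilp and its paralogue Cilp2, Sparc and its relative Sparcl1, Tnc, Postn, Myoc and Gsn. The members were taken from a list of abundant tendon matrix proteins, several of which had been noted as strongly lower in the knockout. The list therefore used the contrast between the genotypes, and the differences of the members in that contrast are given as a description, without a test.

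Tail tendon fascicles, the collagen strands that run along the mouse tail, were profiled by RNA sequencing in 16 libraries. The 8 wild type (WT) libraries carry no further description of their alleles, and the 8 knockout (KO) libraries came from animals with floxed Vhl and a Cre recombinase driven by Scx, a transcription factor of the tendon lineage (ScxCre;Vhlf/f). Cells outside the Scx lineage are not targets of this Cre. The labels give neither age nor sex, name no treatment, and list all cells of the tissue as the cell type. They do not say whether the numbered samples are separate animals, so p-values measure only the spread between these samples, which may be technical.

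Total counts ran from 10792900 to 16379401 in the wild type and from 10488355 to 18753254 in the knockout, and values are CPM, counts scaled to a common library size after the trimmed mean of M-values (TMM) method. Vhl was at 14.1 to 25.8 CPM (median 20.6) in the wild type and at 7.51 to 10.9 CPM (median 9.52) in the knockout, without overlap. All 10 tenocyte markers were detected in both genotypes. Tnmd, a tenocyte surface protein, stood at 1739 to 3269 CPM in the wild type and at 820 to 1970 CPM in the knockout, and 7 of the 10 markers fell and 1 rose. Because whole tissue was measured, fewer cells of a type and less RNA per cell cannot be told apart. Skeletal muscle markers stood apart in wild type library 5 (4295 CPM summed over 12 genes) and in knockout libraries 6, 7 and 8 (6190 to 8213 CPM), against 51.8 to 1203 CPM in the other 12 libraries.

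Matricellular proteins are secreted proteins that bind collagen, growth factors and cell surface receptors rather than bear load themselves. In tendon they affect how collagen fibrils assemble and how cells attach, and several of them are induced in growth, loading and repair. Vhl encodes the substrate-recognition part of a ubiquitin ligase that marks hypoxia-inducible factor (HIF) subunits for degradation, and HIF binds DNA at a short core, read as ACGTG or, with another base in front, as GCGTG.

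The promoters of the gene with the lowest knockout level and of a pair of genes with higher knockout levels are shown, since the deleted gene acts on a DNA-binding factor. Each run is the 250 bases before the start, 5′ to 3′ on the strand of the gene, from RefSeq on GRCm38.p6. Capitals mark GCGTG read on the opposite strand in Coch (chr12:51593091-51593340, plus strand) and TATAA, the core of the TATA box, in Cilp (chr9:65264930-65265179, plus strand) and Postn (chr3:54360857-54361106, plus strand).
Coch: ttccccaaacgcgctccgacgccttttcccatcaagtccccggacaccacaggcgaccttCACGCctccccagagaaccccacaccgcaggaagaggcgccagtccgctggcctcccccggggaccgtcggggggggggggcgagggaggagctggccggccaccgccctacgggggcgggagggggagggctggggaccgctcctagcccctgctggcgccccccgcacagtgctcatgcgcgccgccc
Cilp: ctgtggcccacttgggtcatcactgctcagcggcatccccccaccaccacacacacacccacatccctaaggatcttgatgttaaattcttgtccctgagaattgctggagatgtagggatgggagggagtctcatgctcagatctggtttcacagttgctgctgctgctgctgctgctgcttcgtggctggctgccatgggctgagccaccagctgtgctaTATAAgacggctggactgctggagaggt
Postn: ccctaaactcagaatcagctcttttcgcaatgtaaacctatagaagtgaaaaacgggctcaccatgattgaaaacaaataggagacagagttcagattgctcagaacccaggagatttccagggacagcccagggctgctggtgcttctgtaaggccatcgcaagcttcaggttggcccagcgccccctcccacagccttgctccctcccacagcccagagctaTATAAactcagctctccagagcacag

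The RefSeq promoter set used here held 12 such windows for 8 of the 10 members, all but Vit and Sparcl1. A chromosome that holds none of the members was left out of the set. Both forms of the HIF core and the TATA core were searched on both strands. Of the 12 windows none held ACGTG, which stood in 16.6% of all 32817 windows of the set. GCGTG, found in 28.1% of all windows, was present in the windows of Coch, 190 to 186 bases before the start, and of Cilp2, 57 to 53 bases before it. A match is a description and not a binding site, and 38.6% of all windows held either form of the HIF core. TATAA stood in 22.8% of all windows, at any position. On the strand of the gene it lay 28 to 24 bases before the start in Cilp, 27 to 23 in Tnc and 26 to 22 in both Myoc and Postn. The same Tnc window held it again at 205 to 201, and the other Tnc window only at 126 to 122. A Gsn window held it on the opposite strand at 171 to 167. The other Postn window (chr3:54359017-54359266), not shown above, held no match.

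Across the list, 6 of the 10 members had knockout libraries that did not overlap the wild type ones, 4 lower (Coch, Cilp2, Sparc and Gsn) and 2 higher (Sparcl1 and Postn). Of all 14803 genes tested, 19.4% had groups without overlap, 8.61% lower and 10.8% higher. A fitted difference of at least 2-fold was found in 7 members, 4 lower and 3 higher, with Cilp as the third of the higher ones, against 13.8% of all tested genes (4.92% lower and 8.85% higher). Since the members were chosen with this contrast in view, nothing is read from these shares. All 10 members passed the filter on low counts. Together they took 4.41% to 5.18% of all counts in the wild type (median 4.84%) and 2.00% to 2.89% in the knockout (median 2.59%), and Sparc alone made up 44.8% to 71.8% of those member counts in the wild type and 36.7% to 52.7% in the knockout.

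**Figure D1:**
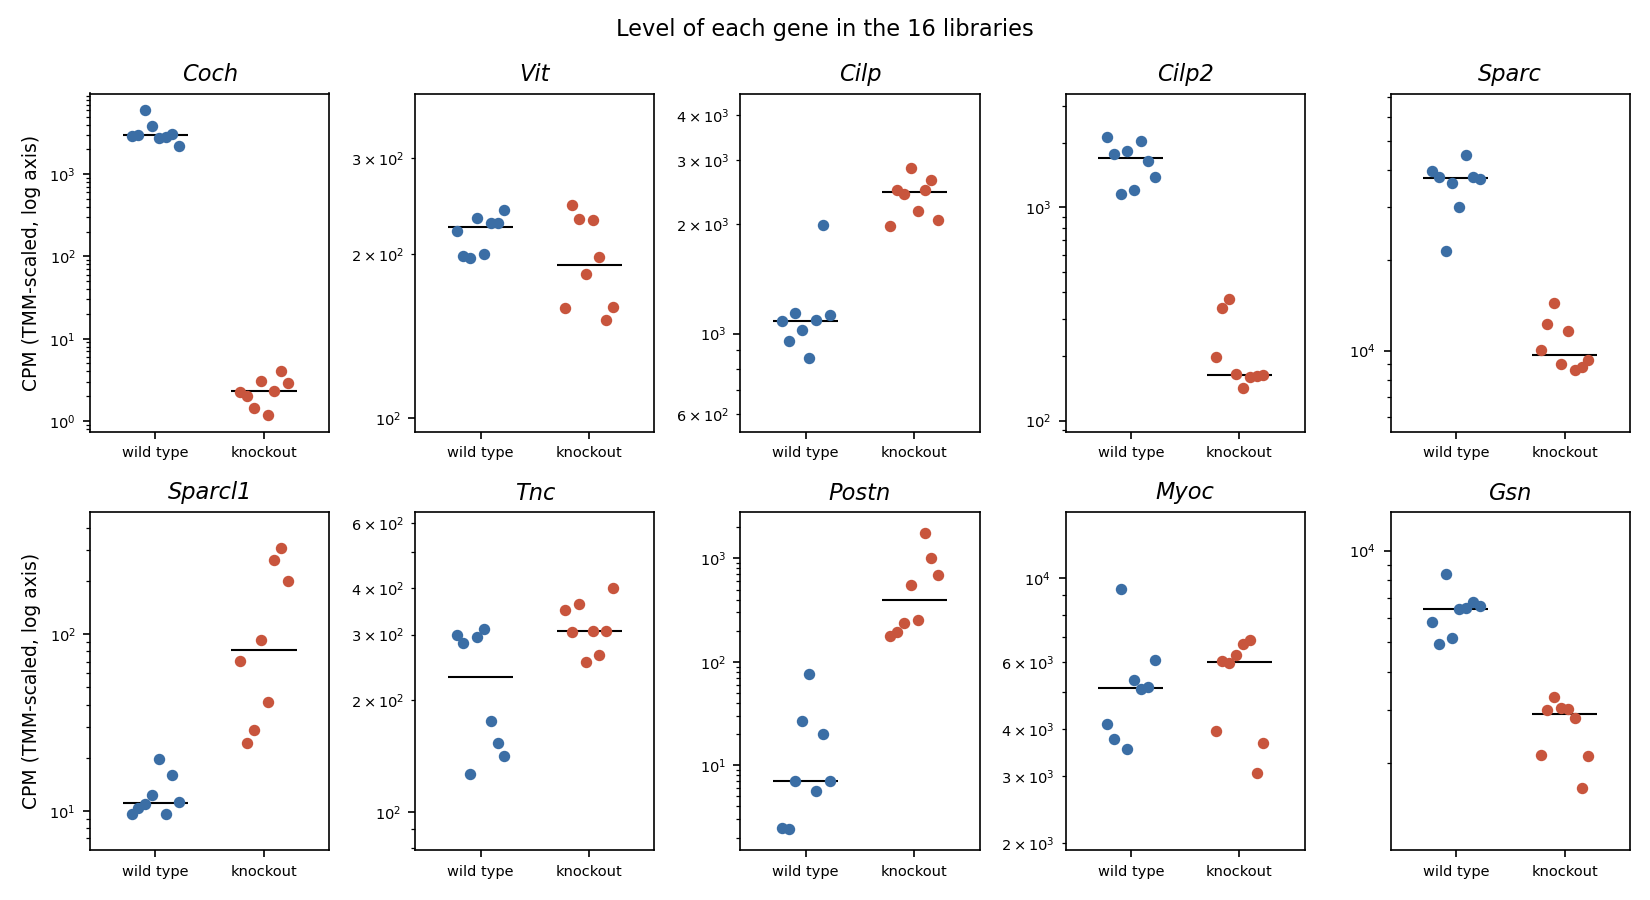
CPM of each gene on a log axis (each panel with its own range) in 8 wild type and 8 knockout libraries, 1 point per library in the order of the library numbers, with a line at the median. Coch, Cilp2, Sparc and Gsn lay lower in every knockout library than in any wild type one, Sparcl1 and Postn higher, and the groups of Vit, Cilp, Tnc and Myoc overlapped.

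Coch (ENSMUSG00000020953, chromosome 12) encodes cochlin, a secreted protein with an LCCL domain and von Willebrand factor A domains, best known from the matrix of the inner ear. Its level in the wild type was lowest at 2178 CPM, with a median of 2963 and a highest value of 5986 CPM in library 3. In the knockout it ran from 1.19 CPM over a median of 2.30 to 4.02 CPM. The 2 groups were far apart: the lowest wild type library stood 541 times above the highest knockout library. The means were 3335 ± 1168 CPM (SD, n = 8) and 2.41 ± 0.912 CPM (SD, n = 8), a ratio of 1386, and the fitted log2 fold change was -10.43 (SE 0.32). The residual level was measurable, since it rested on 17 to 83 counts per knockout library, above the floor of 3 counts. Left out in turn, no library moved the fold change outside -10.59 to -10.26.

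Vit (ENSMUSG00000024076, chromosome 17) encodes vitrin, which shares the LCCL and von Willebrand A domains of cochlin. Vit stood at 197, 224 and 242 CPM (lowest, median and highest) in the wild type and at 151, 191 and 247 CPM in the knockout. The groups overlapped, with 4 knockout libraries below the lowest wild type one and 1 above the highest. The log2 difference was -0.16 (SE 0.10), and its sign depended on the scaling: it was 0.14 when library sizes were total counts alone. Per kilobase of exon, Coch was 9.71 to 32.7 times above Vit in the wild type (median 14.8). In the knockout, Vit was 34.9 to 181 times above Coch (median 71.4).

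Cilp and Cilp2 encode paralogues of the cartilage intermediate layer protein, secreted glycoproteins, of which CILP is known to bind transforming growth factor beta. Cilp (ENSMUSG00000042254, chromosome 9) stood at 859, 1085 and 1996 CPM (lowest, median and highest) in the wild type and at 1978, 2451 and 2864 CPM in the knockout. Of the knockout libraries, 7 of 8 lay above every wild type one, and the overlap came from wild type library 7 alone. The means were 1159 ± 351 and 2389 ± 300.1 CPM (SD, n = 8 each), a log2 fold change of 1.04 (SE 0.14).

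Cilp2 (ENSMUSG00000044006, chromosome 8) went in the other direction. It ran from 1159 over a median of 1713 to 2138 CPM in the wild type and from 142 over 164 to 371 CPM in the knockout. No libraries overlapped, and the lowest wild type value was 3.13 times the highest knockout value. Knockout libraries 2 and 3, at 337 and 371 CPM, were the highest of their group, while 5 of the other 6 lay between 142 and 165 CPM. The mean was 1649 ± 370 CPM in the wild type and 212 ± 89.2 CPM in the knockout (SD, n = 8 each), 7.76 times lower, with a log2 fold change of -2.96 (SE 0.22). The order of the paralogues per kilobase accordingly differed: the ratio of Cilp to Cilp2 was 0.513 to 1.23 (median 0.646) in the wild type and 6.64 to 17.6 (median 14.2) in the knockout, with no overlap.

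Sparc (ENSMUSG00000018593, chromosome 11) encodes a calcium-binding glycoprotein that binds collagen and takes part in fibril assembly. Its mean per kilobase was the highest of the 10 members in both genotypes. Its wild type values were 21382, 37535 and 44818 CPM (lowest, median and highest), and its knockout values 8599, 9688 and 14366 CPM. Every knockout library lay below every wild type one, including wild type library 3, which was the lowest of its group. The mean was 3.39 times lower, a loss of 25114 CPM, and the log2 fold change was -1.76 (SE 0.15). It ran from -1.85 to -1.71 with any library left out.

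Sparcl1 (ENSMUSG00000029309, chromosome 5) encodes hevin, a relative of SPARC that is prominent in vessel walls in many tissues. It stood at 9.62, 11.1 and 19.7 CPM (lowest, median and highest) in the wild type and at 24.3, 81.9 and 307 CPM in the knockout. The groups did not overlap, but the knockout libraries differed widely: libraries 6, 7 and 8 lay at 261, 307 and 199 CPM, and libraries 2, 3 and 5 at 24.3, 28.6 and 41.2 CPM. The means were 12.5 ± 3.57 and 128 ± 112 CPM (SD, n = 8 each), 10.3 times higher in the knockout, with a log2 fold change of 3.36 (SE 0.56). Sparc stayed above Sparcl1 per kilobase in every library, by 1180 to 3613 times (median 2423) in the wild type and 22.3 to 390 times (median 92.7) in the knockout.

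Tnc (ENSMUSG00000028364, chromosome 4) encodes tenascin-C, an oligomeric glycoprotein of tendon and its junction with muscle that rises in development and repair. It stood at 126, 230 and 311 CPM (lowest, median and highest) in the wild type and at 253, 306 and 401 CPM in the knockout. The groups overlapped, with 3 knockout libraries above the highest wild type one. The wild type values fell into separate ranges, 126 to 176 CPM in libraries 3, 6, 7 and 8 and 285 to 311 CPM in libraries 1, 2, 4 and 5, the latter within the knockout range. The log2 difference was 0.51 (SE 0.19), and 0.83 with total counts. A stretch of 176 bases (2.27%) of its exons overlaps 8030451A03Rik on the opposite strand, and reads of the pair cannot be told apart if counting ignored strand.

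Postn (ENSMUSG00000027750, chromosome 3) encodes periostin, a fasciclin-domain protein that links collagen, tenascin-C and integrins. It was the scarcest member per kilobase in the wild type, with values of 2.42, 7.08 and 76.7 CPM (lowest, median and highest), the last in library 5. Knockout values were 178, 400 and 1755 CPM. The groups did not overlap, and the lowest knockout library stood 2.33 times above the highest wild type library. The means were 18.5 ± 25.1 and 608 ± 549 CPM (SD, n = 8 each), 32.8 times higher in the knockout. The log2 fold change was 5.04 (SE 0.86), and 5.88 without wild type library 5. Its spread was wide in both genotypes, with a coefficient of variation of 135% among wild type and 90.2% among knockout libraries, beside 28.6% and 87.2% for Sparcl1. The highest knockout library was 9.84 times the lowest for Postn and 12.6 times for Sparcl1. Tnc was 4.54 to 136 times above Postn per kilobase in the wild type (median 21.2), and 0.168 to 2.19 times its level in the knockout (median 1.00).

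**Figure D2:**
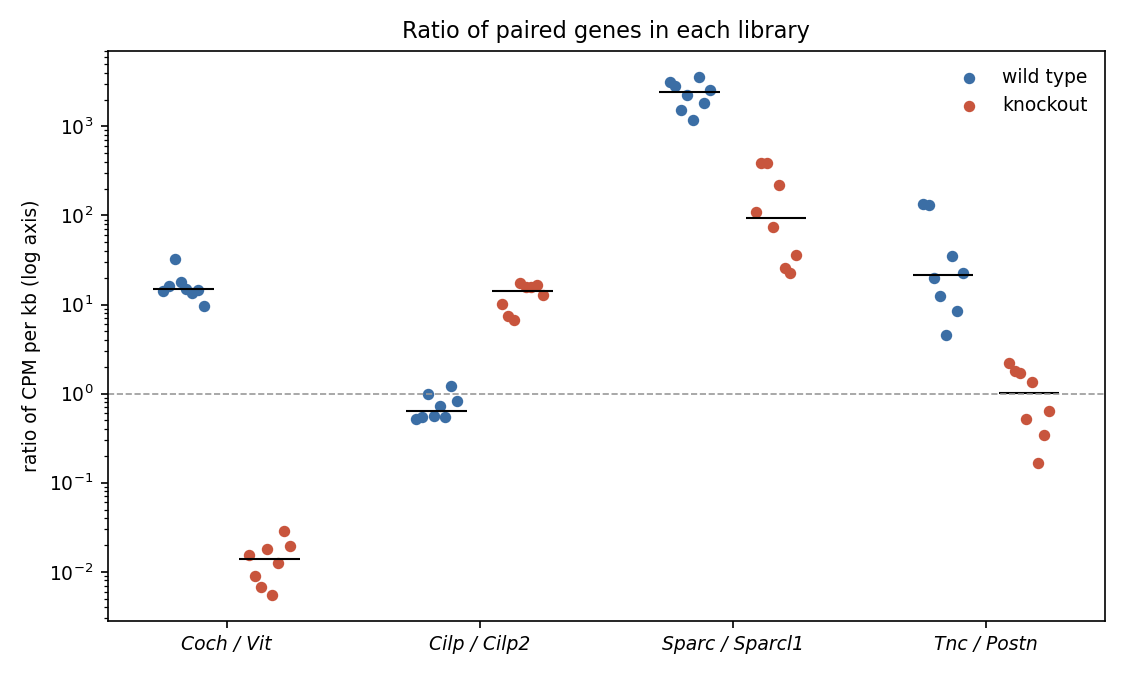
Ratio of CPM per kb of exon (log axis) of Coch to Vit, Cilp to Cilp2, Sparc to Sparcl1 and Tnc to Postn, 1 point per library with a line at the median, and a dashed line where both genes are at the same level per length. The 8 wild type and 8 knockout libraries did not overlap in any of the 4 ratios. Coch to Vit passed from a median of 14.8 to 0.0140, and Cilp to Cilp2 from 0.646 to 14.2.

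Myoc (ENSMUSG00000026697, chromosome 1) encodes myocilin, a secreted olfactomedin-domain protein known from the eye's outflow tissue. It stood at 3551, 5133 and 9342 CPM (lowest, median and highest) in the wild type and at 3063, 5998 and 6884 CPM in the knockout. The groups overlapped, with 1 knockout library below the lowest wild type one and wild type library 3 the highest of all 16. The log2 difference was -0.00 (SE 0.21), and 0.27 with total counts. Myocos, on the opposite strand, shares 93 bases (4.48%) of the exons of Myoc, so the counts of both are uncertain where strand was not used. Myocos ran from 378 to 966 CPM in the wild type and from 298 to 758 CPM in the knockout (edgeR quasi-likelihood, log2 fold change -0.03, adjusted p = 0.914).

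Gsn (ENSMUSG00000026879, chromosome 2) encodes gelsolin, which severs and caps actin filaments inside cells and also exists as a secreted form. The deposited counts are per gene and do not separate the forms. It stood at 4931, 6450 and 8375 CPM (lowest, median and highest) in the wild type and at 1659, 2909 and 3311 CPM in the knockout. The groups did not overlap, with the lowest wild type library 1.49 times above the highest knockout library. The means were 6324 ± 1072 and 2637 ± 586 CPM (SD, n = 8 each), 2.40 times lower in the knockout, and the log2 fold change was -1.26 (SE 0.14).

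Set in order per kilobase of exon, the wild type means were 9402 CPM per kb for Sparc, 2562 for Myoc, 2003 for Gsn, 1112 for Coch, 382 for Cilp2, 273 for Cilp, 67.7 for Vit, 28.8 for Tnc, 4.25 for Sparcl1 and 2.13 for Postn. Between neighbours in this order, the ranges of libraries overlapped for Myoc and Gsn, Gsn and Coch, Cilp2 and Cilp, and Sparcl1 and Postn. In the knockout the order of mean CPM per kb was Sparc at 2772, Myoc at 2562, Gsn at 835, Cilp at 562, Postn at 69.9, Vit at 60.5, Cilp2 at 49.2, Sparcl1 at 43.6, Tnc at 41.0 and Coch at 0.802. Only Myoc and Gsn, Cilp and Postn, and Tnc and Coch were neighbours with separate ranges there. Coch passed from rank 4 to rank 10, and Postn from rank 10 to rank 5.

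**Figure D3:**
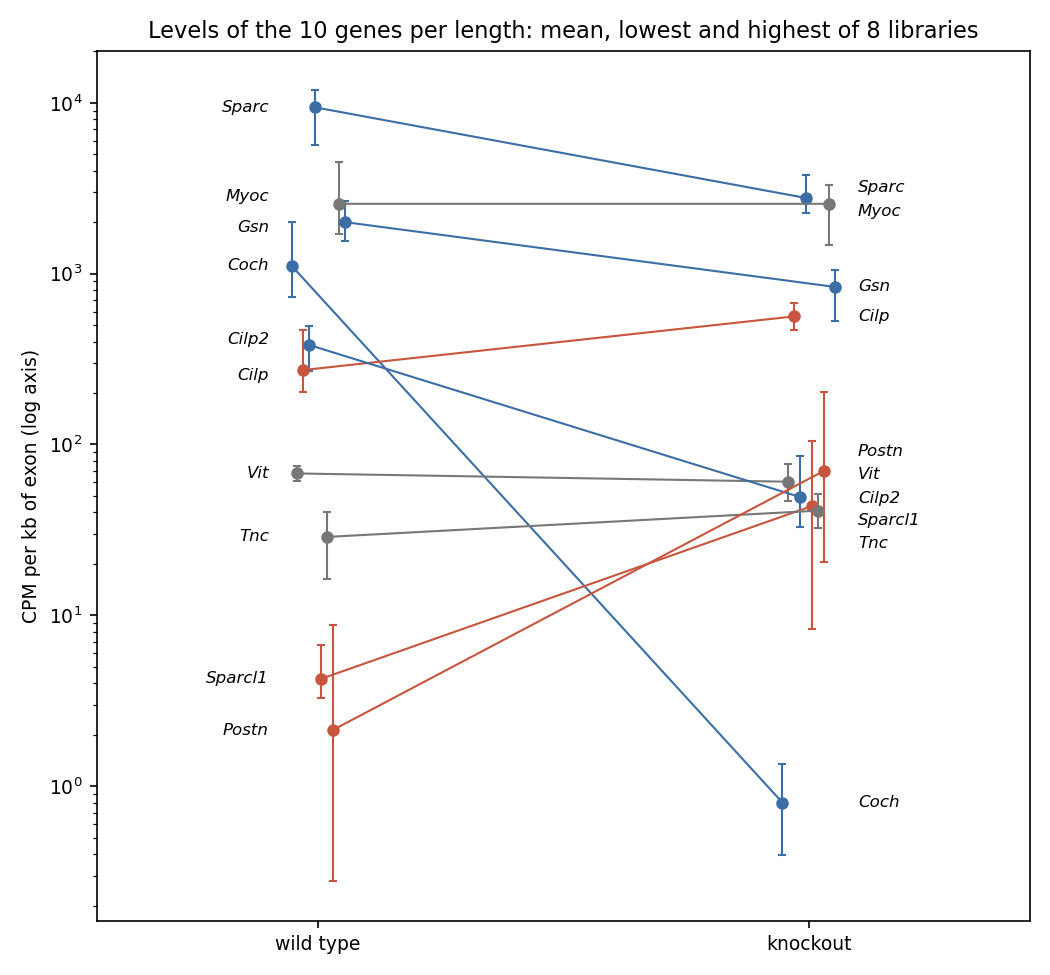
Mean CPM per kb of exon (log axis) of the 10 genes in each genotype, with bars from the lowest to the highest of 8 libraries, points shifted sideways for legibility. Blue marks a fitted log2 fold change of -1 or less, red 1 or more and grey the rest. Sparc had the highest mean in both genotypes, though its range overlapped that of Myoc in the knockout. The mean of Coch passed from 1112 to 0.802 CPM per kb.

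Within the wild type, library 3 was the highest for Coch, Myoc and Gsn and the lowest for Sparc, Cilp2, Vit and Tnc. The same library had the lowest summed level of the 10 tenocyte markers, 137637 CPM, against up to 387474 CPM in the other wild type libraries. Col1a1 and Col1a2 made up most of this sum, with wild type means of 153493 and 107971 CPM. In the knockout the sum ran from 83546 to 185144 CPM. The part of this difference in the members' values was not tested. Relations between members were computed within each genotype over 8 libraries, for every pair with at least 10 counts in each library. Each member was also set against the muscle marker score. A score was the mean log2 CPM of the tested markers of a cell type. The pairs and the score gave 110 relations. By exact permutation, none had a Benjamini-Hochberg adjusted p under 0.05, and 26 had an unadjusted p under 0.05. Myoc and Gsn had the highest r in the wild type (Pearson's r 0.956, exact permutation p = 0.000694, adjusted 0.0546, Spearman's rho 0.857, p = 0.0107, adjusted 0.200). Without the 2 libraries farthest from the median of Myoc, r was 0.886. The muscle score had r = 0.900 with Postn and 0.865 with Sparcl1 in the wild type (exact permutation, adjusted p = 0.0546 for each). In the knockout its r with Sparcl1 was 0.894 and with Postn 0.784 (exact permutation, adjusted p = 0.0909 and 0.175).

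Markers of vessel cells and of muscle were both high in the knockout libraries with the most Sparcl1 and Postn. Of 10 endothelial markers, 7 were tested and 5 rose, and their summed level was 29.8 to 49.8 CPM in the wild type, with Tie1 and Cldn5 at the floor of 3 counts or less, and 36.6 to 485 CPM in the knockout. Of 8 markers of mural cells, which wrap vessels, 7 were tested, 4 rose and 1 fell, with sums of 354 to 473 CPM and 328 to 1485 CPM. Knockout libraries 6, 7 and 8, the highest for Sparcl1 and Postn, had endothelial sums of 319, 485 and 334 CPM, and libraries 2 and 3 had 36.6 and 53.0 CPM. Libraries 6, 7 and 8 were also the highest of the knockout for muscle markers (6190 to 8213 CPM). Summed levels of 7 adipocyte markers were highest there too, at 37.1, 70.2 and 35.5 CPM, against 10.7 to 23.0 CPM in the other knockout libraries. Vessel, muscle and adipocyte levels therefore cannot be told apart in libraries 6, 7 and 8. In libraries 2 and 3, close to the wild type range of the endothelial sum, Sparcl1 stood at 24.3 and 28.6 CPM, above all wild type libraries, and Postn at 192 and 237 CPM. In the wild type this sum is weighted toward Tek (mean 22.7 CPM), which was at 21.4 CPM in the knockout. Single markers differed in library 2, where Pecam1 (4.59 CPM) and Egfl7 (3.57 CPM) were above their wild type maxima of 2.02 and 2.59 CPM. There Cdh5 and Kdr lay within their wild type ranges, and Esam at 2.30 CPM was below its wild type minimum of 4.84 CPM. Mural sums of libraries 2 and 3 were 328 and 427 CPM, not above the wild type maximum. The mural markers Rgs5 and Notch3 were at least 34.2 and 8.93 CPM in every knockout library, above wild type maxima of 19.6 and 5.27 CPM. Myh11 in library 2 (1.02 CPM) lay within its wild type range. Summed erythroid markers were at 505 and 126 CPM in libraries 2 and 3, against at most 50.7 CPM in the wild type.

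Relations with the scores of cell types other than muscle were added after the data had been seen, as a family of 180, of which 8 had an adjusted p under 0.05. In the knockout, Sparcl1 followed the endothelial score with r = 0.979 (exact permutation p = 0.000198, adjusted 0.0179) and rho = 0.976 (p = 0.000397, adjusted 0.0357), and r was 0.969 without the 2 libraries farthest from the median score. In the wild type this r was 0.868 (exact permutation p = 0.000570, adjusted 0.0194; rho 0.905, p = 0.00456, adjusted 0.103) and 0.822 without the 2 farthest libraries. Postn followed the mural score in the wild type (r = 0.955, exact permutation p = 0.000645, adjusted 0.0194, rho 0.929, p = 0.00223, adjusted 0.0670, r 0.924 without the 2 farthest). Wild type libraries 4, 5 and 7 had the highest mural scores and also the highest muscle scores, so mural and muscle levels cannot be told apart there. In the knockout, Postn passed with neither the endothelial nor the mural score (r = 0.808 for endothelial and 0.813 for mural, exact permutation, adjusted p = 0.152 for each). With the endothelial score added to the fit over all genes, an alternative also chosen after seeing the data, the log2 difference of Sparcl1 was 0.43 and that of Postn 2.71. Without the 4 libraries of the highest muscle level, a choice also made after seeing the data, the values were 2.17 and 4.76. The endothelial score itself differed with genotype, at 1.01 to 2.23 in the wild type and 1.84 to 5.59 in the knockout. A fit that holds this score therefore cannot tell genotype and vessel content apart. Which cells held these transcripts was not tested. Sparcl1 also followed the mural score, in the knockout (r = 0.977, exact permutation p = 0.000496, adjusted 0.0194; rho 0.976, p = 0.000397, adjusted 0.0357; r 0.962 without the 2 farthest) and in the wild type (r = 0.914, exact permutation p = 0.00121, adjusted 0.0273; rho 0.810, p = 0.0218, adjusted 0.196; r 0.762 without the 2 farthest).

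**Figure D4:**
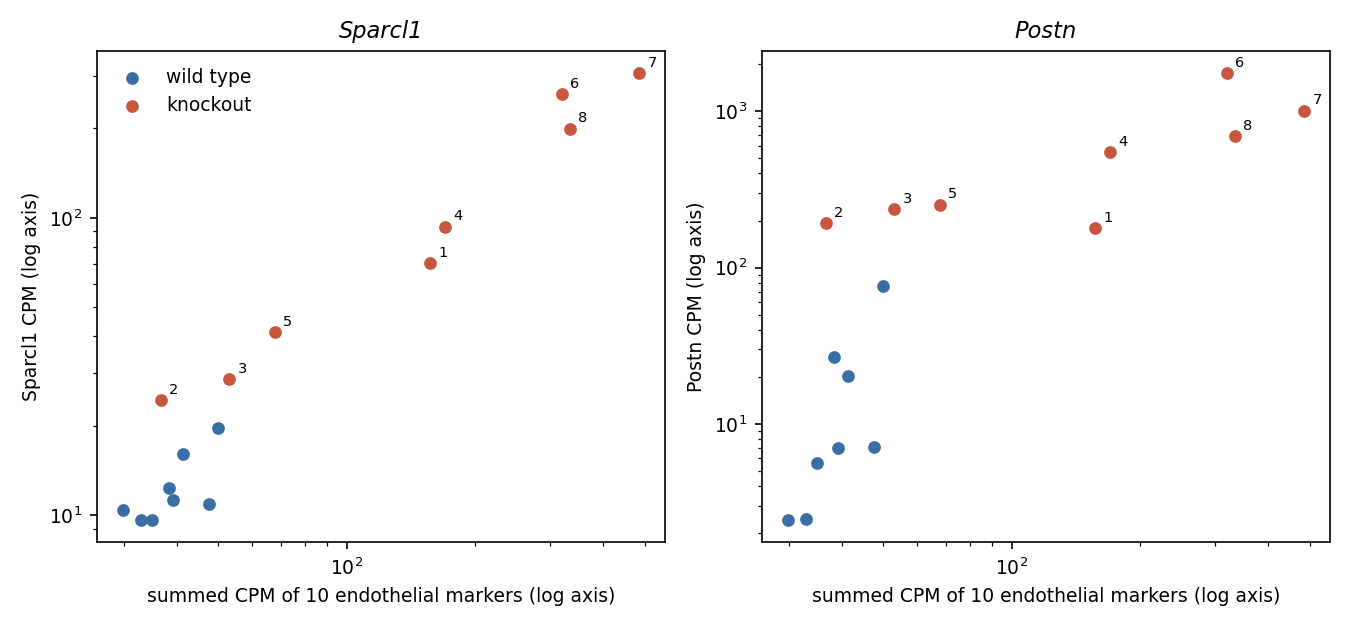
CPM of Sparcl1 and of Postn against the summed CPM of 10 endothelial markers, both on log axes, 1 point per library, with knockout libraries numbered. Sparcl1 ran along with the endothelial sum in the knockout, from 24.3 CPM in library 2 to 307 CPM in library 7. Postn lay at 178 CPM or more in every knockout library, and at 76.7 CPM or less in the wild type.

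Other cell markers moved as well. Of 6 erythroid markers, 5 were tested and all 5 rose (sum 15.1 to 50.7 CPM in the wild type, 77.8 to 562 CPM in the knockout). The sum of 8 chondrocyte markers was 831 to 1814 CPM in the wild type and 154 to 498 CPM in the knockout, while 3 of its 6 tested genes rose and 2 fell. Col11a2 was the largest part of this sum, with means of 1201 CPM in the wild type and 147 CPM in the knockout. The genes that rose were Acan (6.24 to 62.6 CPM), Hapln1 (4.39 to 43.9 CPM) and Sox9 (3.26 to 16.7 CPM), by their means. For 8 markers of sheath and interstitial fibroblasts, 2 rose and 2 fell, and the sum was 4958 to 6397 CPM against 2647 to 3819 CPM. Prg4 was the largest part of that sum, with means of 4458 CPM in the wild type and 1575 CPM in the knockout. Gsn was higher where the score of these markers was higher in the wild type (r = 0.953, exact permutation p = 0.000397, adjusted 0.0194, rho 0.952, p = 0.00114, adjusted 0.0670, r 0.858 without the 2 farthest). Myoc was lower where the chondrocyte score was higher in the wild type (r = -0.962, exact permutation p = 0.000942, adjusted 0.0242; rho -0.833, p = 0.0154, adjusted 0.154; r -0.831 without the 2 farthest). Cilp2 was lower where the score of the 7 tested Schwann cell markers was higher in the knockout (r = -0.871, exact permutation p = 0.000174, adjusted 0.0179, rho -0.929, p = 0.00223, adjusted 0.0670, r -0.865 without the 2 farthest). The summed level of all 8 Schwann cell markers was 416 to 480 CPM in the wild type and 295 to 545 CPM in the knockout. Pmp22 was the largest part of this sum, with means of 409 and 344 CPM. The relation was computed with the score and not with the sum. Of 8 keratinocyte markers, Krt5, Krt14, Krt1 and Krt15 were at the floor in both genotypes. The other 4 were tested, of which 3 fell and 1 rose. Krt10, Dsp and Perp fell, with log2 fold changes of -0.35, -1.01 and -1.43, and Sfn rose, with 0.88. The part of these markers in the members' differences was not tested.

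The rest of the families around these members was described from 10 lists of 77 genes, of which 66 were tested. In the fit over all genes, 16 rose, 24 fell and 26 did not pass the threshold, against 25.6% higher and 22.7% lower (48.3% in all) of the 14803 genes tested. The median log2 fold change was -0.05 over the lists and 0.02 over all genes. Scaling by total counts, which moves the median of all genes to 0.32, turned the split to 32 higher and 16 lower. Adjusted p-values are from edgeR's quasi-likelihood test.

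Among the relatives of SPARC, 5 of 6 genes were tested, and 2 fell and 2 rose. Spock2, a proteoglycan of the family, was at 154 to 294 CPM in the wild type and 10.5 to 14.1 CPM in the knockout (log2 fold change -4.17, SE 0.13, adjusted p = 9.67e-15). Smoc1 fell by 2.84 on the log2 scale (SE 0.36, adjusted p = 2.86e-06), from 4.37 to 13.3 CPM down to 0.247 to 2.38 CPM. Its paralogue Smoc2 rose, from 20.3 to 50.1 CPM up to 51.1 to 107 CPM (1.31 ± 0.20 SE on the log2 scale, adjusted p = 4.91e-05). Spock3 rose as well at a low level, from 0.759 to 2.69 CPM up to 4.02 to 16.2 CPM (2.61 ± 0.29 SE on the log2 scale, adjusted p = 5.46e-07). None of these 4 genes had groups that overlapped. Fstl1, the follistatin-like member, was at 1584 ± 120 and 1746 ± 386 CPM (SD, n = 8 each; log2 fold change 0.14, adjusted p = 0.331).

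Of 8 tested genes that share the LCCL or von Willebrand A domains of cochlin, 7 fell and 1 rose, and 5 fell and 1 rose with total counts, where Dcbld1 and Dcbld2 no longer passed. For Dcbld2, 19.1% of the exon bases overlap St3gal6 on the opposite strand. Matn3, a matrilin of cartilage matrix, stood at 13.3 to 25.3 CPM in the wild type and at 0.567 to 2.04 CPM in the knockout (log2 fold change -4.02, SE 0.23, adjusted p = 3.79e-11). Matn4 fell by 2.53 on the log2 scale (SE 0.28, adjusted p = 1.55e-06), with 149 bases (2.88%) of its exons shared with Rbpjl on the opposite strand. Crispld2, a secreted LCCL-domain protein, passed from 795 ± 242 to 216 ± 87.0 CPM (SD, n = 8 each; log2 fold change -1.88, SE 0.25, adjusted p = 5.87e-06). Vwa1, a von Willebrand A domain protein of basement membranes, was the gene that rose (16.7 ± 2.79 to 38.3 ± 8.25 CPM, SD, n = 8 each; log2 fold change 1.20, SE 0.13, adjusted p = 2.99e-07). Its counts are uncertain, since 21.0% of its exon bases overlap Gm26840 on the opposite strand.

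In the families of Tnc and Postn, both tested tenascins passed in opposite directions. Tnn, tenascin-W, rose by 4.25 on the log2 scale (SE 0.72, adjusted p = 0.000130) from at most 0.676 CPM in the wild type to 1.19 to 20.8 CPM, and Tnxb, tenascin-X, fell by 0.66 (SE 0.12, adjusted p = 0.000147), from 2121 ± 282 to 1340 ± 265 CPM (SD, n = 8 each). With the endothelial score in the fit, 1 of the 2 tenascins passed. Of 3 genes with fasciclin domains, Tgfbi rose (log2 fold change 0.76, SE 0.12, adjusted p = 4.31e-05), from 533 ± 86.2 to 902 ± 177 CPM (SD, n = 8 each). Stab1 and Stab2 did not pass, and with total counts 2 of the 3 genes passed.

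Of 6 tested olfactomedin-domain relatives of Myoc, 2 rose and 2 fell. Olfml3, a secreted member, fell from 508 to 835 CPM down to 155 to 256 CPM (-1.77 ± 0.13 SE on the log2 scale, adjusted p = 7.25e-10). Olfml1 had a log2 fold change of -0.65 (adjusted p = 6.19e-05), Olfm1 of 0.84 (adjusted p = 7.86e-07) and Olfml2b of 0.28 (adjusted p = 0.00715). In the gelsolin family, 3 of 5 tested genes fell (Svil, Vill and Flii, by 0.60, 0.59 and 0.18 on the log2 scale) and Capg rose by 0.29, beside a fitted difference of -1.26 in Gsn. In this list 2 genes passed without wild type library 1, and 1 gene with the endothelial score in the fit. With total counts, Vill and Flii no longer passed and the log2 difference of Flii turned to 0.12.

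The CCN family and the other matricellular genes mostly did not pass. Ccn4 was the gene of 5 tested in its family that fell, from 117 ± 31.6 to 46.7 ± 11.8 CPM (SD, n = 8 each; log2 fold change -1.32, SE 0.19, adjusted p = 2.00e-05). Under 7 of 27 alternatives 2 genes of the family passed, among them the fit without wild type library 5 and the scaling by total counts, where 1 was higher and 1 lower. Ccn1 and Ccn2, which respond to load, were at 80.5 ± 75.7 against 143 ± 33.7 CPM and at 659 ± 345 against 857 ± 449 CPM (adjusted p = 0.0985 and 0.428). The counts of Ccn2 are uncertain, since 23.2% of its exon bases overlap Gm15270 on the opposite strand. Of Spp1, Thbs1, Thbs2, Lgals1, Lgals3 and Lgals8, Lgals3 rose (log2 fold change 0.88, adjusted p = 3.82e-05) and Lgals1 fell (-0.37, adjusted p = 0.0217). With total counts 4 of these 6 passed, all higher, and Lgals1 was not among them (-0.08, adjusted p = 0.652).

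Receptors known to bind these proteins changed in both directions: 4 of 11 tested rose and 2 fell. Itga8, the alpha chain of an integrin that binds tenascin-C among other ligands, rose from 3.51 ± 1.20 to 15.7 ± 5.03 CPM (SD, n = 8 each; log2 fold change 2.16, SE 0.22, adjusted p = 1.51e-07), and 5.05% of its exon bases overlap a transcript on the opposite strand. Sdc4, a heparan sulfate proteoglycan that takes part in adhesion, rose from 154 ± 13.6 to 348 ± 64.2 CPM (SD, n = 8 each; log2 fold change 1.17, SE 0.10, adjusted p = 8.98e-09). Itgb3 and Itgav, the chains of a periostin-binding integrin, rose by 0.87 and 0.22 on the log2 scale (adjusted p = 3.89e-05 and 0.000887). Itga9, another tenascin-C receptor chain, had a log2 fold change of -0.97 (adjusted p = 1.35e-08), and Itgb5 of -0.54 (adjusted p = 1.91e-05).

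Among 15 ligands and regulators linked to the members, 5 fell and 3 rose, and 4 in all passed with the endothelial score in the fit. Igf1 fell by 0.82 on the log2 scale (adjusted p = 3.75e-05) and its receptor Igf1r rose by 0.74 (adjusted p = 2.51e-07). Bmp1, a protease that processes procollagen, fell by 0.57 (adjusted p = 0.000156). Tgfb1 was at 32.8 ± 3.46 and 32.5 ± 5.13 CPM (SD, n = 8 each; adjusted p = 0.907), while Tgfb2, Tgfbr2 and Tgfb3 fell by 0.41, 0.33 and 0.23. With total counts these last 3 genes did not pass, and Tgfb3 stood at 0.08. Smad7 rose by 0.54 and Srf by 0.43 (adjusted p = 0.00114 and 0.00134).

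**Figure D5:**
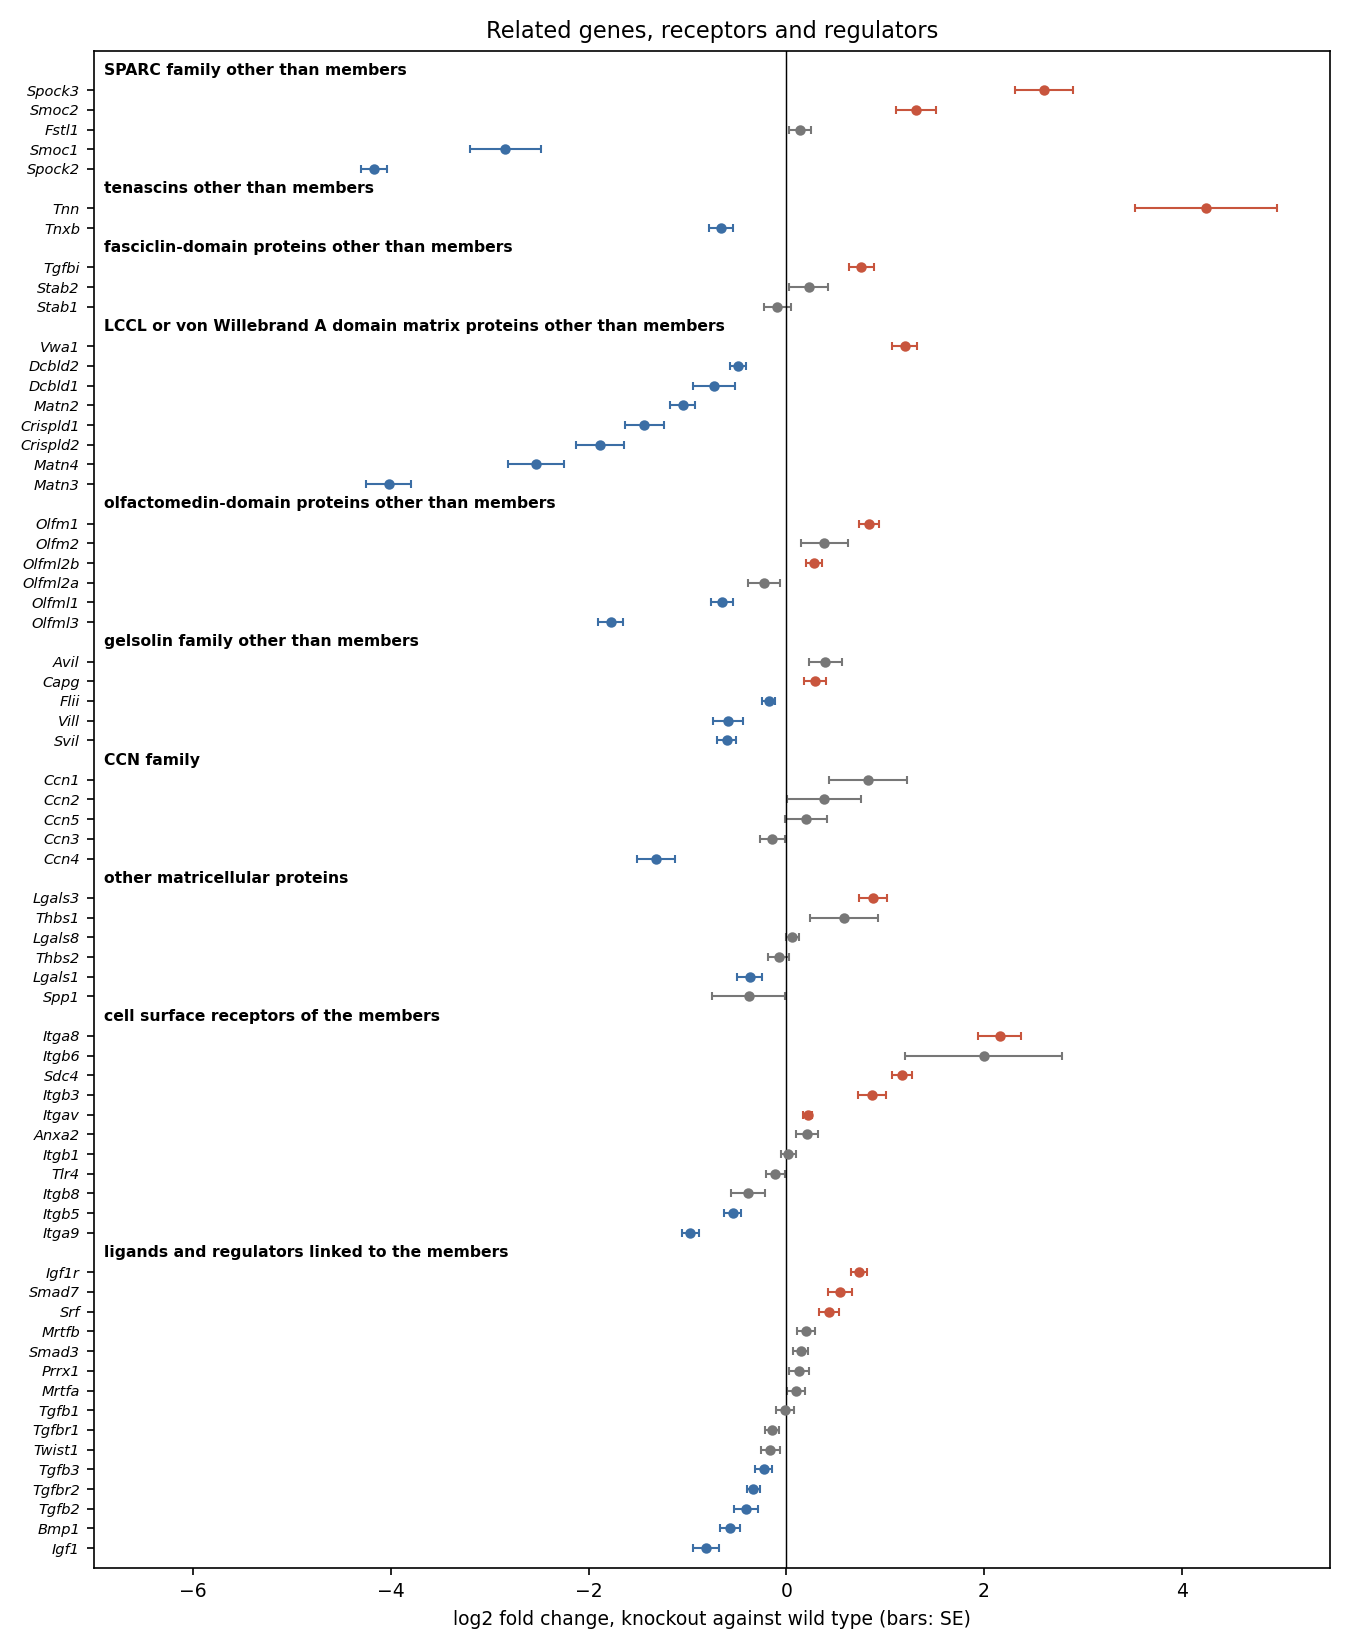
Log2 fold change of the knockout against the wild type (bars: SE) for the 66 tested genes of 10 lists, grouped by list. Red genes rose, blue genes fell and grey genes did not pass an adjusted p of 0.05. The list with LCCL or von Willebrand A domains holds 7 genes that fell and 1 that rose, and Spock2 and Matn3 lie lowest, near -4.

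As a description of likeness, each member was set against the other tested genes with a mean log2 CPM of at least 5, 5239 in number, over deviations from the genotype mean in 16 libraries. For Coch, whose knockout level is low (17 to 83 counts per library), the 8 wild type libraries were used. Libraries share depth and composition, so no p is given. The genes with the highest Pearson r were Pds5b for Coch (r 0.941), Tmem167b for Vit (0.913), Usp54 for Cilp (0.830), Chad for Cilp2 (0.894), Htra1 for Sparc (0.948), Stim1 for Sparcl1 (0.939), Smarcd3 for Tnc (0.881) and Fam57b for Postn (0.930). Myocos came first for both Myoc (0.991) and Gsn (0.929), with the shared exon bases named above for Myoc. Next for Sparc were Pcolce (0.907) and Serpinf1 (0.906), and for Cilp2 P3h2 (0.873) and Crispld2 (0.865). Htra1 is a secreted protease, Pcolce a helper of procollagen cleavage and Chad a leucine-rich matrix protein.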

How the data were processed

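RNA-seq was analysed from 8 wild type and 8 knockout libraries, grouped by the genotype in the labels. The deposited files hold raw counts per Ensembl gene, per the file headers. Per the submitters' processing notes, kallisto and featureCounts were used and the build is GRCm39. Their roles and versions, the annotation and the use of strand are not given in the sources used here, so exon lengths, chromosomes and exon overlaps are from GENCODE M21 (GRCm38) and promoters from RefSeq (GRCm38.p6). Exon overlaps are named for some of the list genes only. Symbols were matched for 25614 of 25719 identifiers. Counts were fitted in edgeR 4.0.16 (R 4.3.3; TMM, default filter, robust quasi-likelihood F test, two-sided) with genotype as the term, and Benjamini-Hochberg adjustment ran over 14803 tested genes (threshold 0.05). Log2 CPM used a prior count of 2. A count of 3, the floor, was 0.145 to 0.336 CPM, which covers counting error only. Self-tests on simulated data of this comparison recovered 98% of genes changed 2-fold and 100% of those changed 4-fold (14716 genes tested), with 4.35% of calls unchanged genes. The simulation changed 200 genes, none at the lowest levels, against 7151 called in the real data, and held no shift in composition. Its shares therefore do not give the recovery or the false calls of the real comparison.

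The members and lists were chosen with earlier results of these data known. Named genes were the 10 members, up to 3 list genes per direction with an adjusted p under 0.05, an absolute log2 fold change of at least 1 and a mean log2 CPM of at least 1, any gene that a count of 5 or fewer refers to, and the 3 most alike genes of each member, of which the first is given, with the others for Sparc and Cilp2. Correlations used exact permutation over all 40320 pairings. Alternatives were DESeq2 1.42.0 (Wald test, and its size factors), limma 3.58.1 voom with quality weights, total counts, other filters, the 20 most abundant genes left out of the scaling, a replicate block, a muscle or endothelial covariate, and libraries left out. Between replicates, the smallest chi-square per degree of freedom was 6.56 (wild type) and 8.67 (knockout), so none was counted as a repeat.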

Additional observations from a re-analysis of the deposited data

Results flagged for a closer look

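Cilp in wild type library 7 stood apart from the other 7 wild type libraries. Its log2 CPM was 10.96 (1996 CPM), the next value was 10.16, and the gap made up 0.664 of the range of the group, above Dixon's 95% critical value for a group of 8. This was the result of 1 of 44 such checks (10 members and 12 named list genes in each genotype), where chance gives about 1 in 20, or 2.2. No cause was tested.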

How the results depend on the processing

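Under 27 alternatives the 12 list genes named by the rule of size kept their direction and stayed past the threshold, and the members kept their direction except Vit and Myoc, whose differences lie near 0. All genes past the threshold numbered 7151 (3792 higher, 3359 lower), 4561 (2487 higher, 2074 lower) with the endothelial score in the fit, 9685 (8270 higher, 1415 lower; 85.4% higher against 53.0%) with total counts, 6101 without the 4 libraries of highest muscle level, and 6790 to 7151 with any library left out. The cause was not tested. Members at least 2-fold apart were 7, 6 with total counts, without those 4 libraries and without wild type library 5 (where Cilp was at 0.99), and 5 with the endothelial score, under which the log2 difference of Coch was -11.25, of Vit 0.21, of Cilp2 -2.22, of Sparc -1.30 and of Gsn -0.94. List genes past the threshold were 40, and 31 to 48 over the alternatives. Of the 110 planned relations 0 passed the threshold, and 1 with total counts. Same-numbered libraries correlated from -0.397 to 0.394, and 1 of 8 correlated best with its own number. Such correlations cannot exclude a batch or litter shared by libraries of the same number, and the labels do not say whether the numbers pair the libraries. With the replicate number as a block, 7010 genes and 41 list genes passed. Depth limited Smoc1, Matn3 and Coch in the knockout, whose levels are a few CPM or less.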
